A study of Mus musculus with 28 samples.

Results

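The genes described here encode the subunits of neurofilaments and the main structural microtubule-associated proteins of neurons. There are 10 of them, chosen by gene symbol: the neurofilament genes *Nefl*, *Nefm*, *Nefh* and *Ina*, and the genes *Map2*, *Mapt*, *Map1a*, *Map1b*, *Map4* and *Map6*. They were read from 2 tables of gene expression in a mouse line in which *Myt1l*, a zinc-finger transcription factor gene of neurons, is knocked out. The table of embryonic cortex listed 9 of the 10 among 13846 genes, and the table of adult prefrontal cortex (PFC) listed all 10 among 14104. *Nefh* was not analysed in the embryonic cortex.

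The libraries came from cortex of mid-gestation embryos (E14.5), 6 wild-type (WT), 6 heterozygous (Het) and 4 homozygous (Hom), and from the PFC of 6 WT and 6 Het adults, 28 libraries in all. Hom adults were not analysed here, and no treatment is labelled. The labels name 5 WT, 3 Het and 3 Hom embryos as female, and the PFC animals as 3 of each sex per genotype. The labels used here give neither the design of the allele, nor the strain, nor the age of the adults. Each library carries its own animal identifier and is named below by its group, sex initial and animal number, such as Hom M02. The study's stated aim was to follow chromatin and transcript changes upon loss of MYT1L.

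Neurofilaments are the intermediate filaments of mature neurons. They are assembled from a light (NEFL), a medium (NEFM) and a heavy chain (NEFH) together with alpha-internexin (INA), and they set the calibre of large axons. Alpha-internexin appears early in the developing nervous system, the light and medium chains follow, and the heavy chain comes last. The microtubule-associated proteins bind along microtubules and stabilise or space them: MAP2 marks dendrites and cell bodies, tau (encoded by *Mapt*) marks axons, MAP1B is typical of growing axons, MAP1A of mature neurons, MAP4 is found in many cell types, and MAP6 is the protein that makes neuronal microtubules resistant to cold.

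Levels are in CPM, a gene's count scaled to a common library total, recovered from the log2 values that the authors deposited. Sequencing depth is unknown, since the recovered totals of 27827467 to 30811856 per E14.5 library and 19601294 to 21275162 per PFC library follow the authors' scaling. Differences were tested with limma on log2(CPM + 0.5) over 12429 genes at E14.5 and 12870 in the PFC, with labelled sex as a covariate. A gene is said to have risen or fallen where its p, adjusted by the Benjamini-Hochberg method, was under 0.05. For weakly expressed genes the added 0.5 makes a difference look smaller than it is. All listed members passed the filter on low values, 9 of 9 at E14.5 and 10 of 10 in the PFC.

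The labels were first checked against *Myt1l* itself. Its level was 55.5 ± 8.16 CPM (SD, n = 6) in WT, 42.8 ± 11.1 (n = 6) in Het and 20.2 ± 2.35 (n = 4) in Hom embryos, and 158 ± 8.48 in WT against 114 ± 6.70 in Het PFC (n = 6 each). The fall was -1.43 on the log2 scale in Hom embryos (limma adjusted p = 1.1e-04) and -0.47 in Het PFC (adjusted p = 1.4e-04). In Het embryos the difference was -0.39 (adjusted p = 0.125) and did not pass. Their libraries, at 30.6 to 59.5 CPM, overlapped the WT range of 45.9 to 66.6 CPM. The check therefore does not settle the Het labels at E14.5. The 9 listed markers of embryonic cortical projection neurons, *Tbr1* among them, were all in the E14.5 table, with a summed level of 1597 to 2025 CPM in WT, 1769 to 2415 in Het and 1958 to 2299 in Hom. In adult PFC all 9 markers of cortical excitatory neurons were in the table, at 1681 to 1929 CPM in WT and 1687 to 2061 in Het. The Y-linked genes did not match the labelled sex in 2 E14.5 libraries, Het F10 and Het M11. The E14.5 fit was repeated without them as an alternative. Of the members, only *Nefm* in Hom against WT is given from that fit.

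The members lie on 8 chromosomes of the mouse genome build GRCm38, and all are protein coding. *Nefl* and *Nefm* are neighbours on chromosome 14, with *Nefl* on the plus strand at 68083863 to 68089095 and *Nefm* on the minus strand at 68082590 to 68124846. A second annotated transcript of *Nefm* reaches over *Nefl*, so that 32.8% of the exon bases of *Nefl* and 19.2% of those of *Nefm* are shared. *Nefh* lies on chromosome 11 at 4938754 to 4948064 on the minus strand. *Ina* lies on chromosome 19 at 47014698 to 47025327 on the plus strand, and 14.1% of its exon bases are shared with *Nt5c2*, which runs the other way. The strand setting of the counting is not given in the sources used here, so reads in shared exons cannot be assigned to either gene with certainty.

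Promoter windows of 300 bases, 250 before to 50 after the annotated start, were taken from RefSeq on GRCm38.p6, where 5 of the 10 members had an entry (*Ina*, *Map1a*, *Map1b*, *Map2* and *Map4*, the last with 2 windows). Windows are shown for *Ina*, which makes up most of the embryonic neurofilament signal, and for *Map1a* and *Map1b*, the mature and the growth-associated member of the MAP1 pair. Capitals mark GC boxes, GGGCGG or its reverse complement CCGCCC, a motif chosen after the windows had been seen. In the *Map1a* window 2 of the matches overlap in one run of capitals.
Ina, chr19:47014431-47014730, plus strand: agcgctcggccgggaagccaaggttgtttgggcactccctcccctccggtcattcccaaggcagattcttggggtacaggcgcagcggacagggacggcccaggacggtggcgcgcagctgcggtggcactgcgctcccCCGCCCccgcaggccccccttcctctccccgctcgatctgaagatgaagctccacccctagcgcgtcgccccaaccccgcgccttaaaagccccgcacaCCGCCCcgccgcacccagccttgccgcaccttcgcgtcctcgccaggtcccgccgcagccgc
Map1a, chr2:121289352-121289651, plus strand: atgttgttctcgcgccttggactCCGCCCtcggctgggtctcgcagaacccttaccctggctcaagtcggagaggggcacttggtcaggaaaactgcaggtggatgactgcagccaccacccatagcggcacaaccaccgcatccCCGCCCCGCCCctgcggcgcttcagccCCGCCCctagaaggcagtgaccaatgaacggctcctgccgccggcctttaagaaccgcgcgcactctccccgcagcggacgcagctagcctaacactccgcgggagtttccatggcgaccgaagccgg
Map1b, chr13:99516553-99516852, minus strand: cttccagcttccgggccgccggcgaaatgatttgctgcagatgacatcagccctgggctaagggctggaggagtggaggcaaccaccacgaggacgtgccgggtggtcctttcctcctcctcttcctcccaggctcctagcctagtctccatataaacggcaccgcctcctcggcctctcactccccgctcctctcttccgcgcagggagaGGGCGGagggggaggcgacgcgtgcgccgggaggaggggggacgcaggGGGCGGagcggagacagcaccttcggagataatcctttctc
A GC box on either strand was present in 5 of the 6 member windows, against 35.7% of the 32851 windows in the table. The *Ina* window holds 2 matches at a GC content of 71.7%, the *Map1a* window 4 and the *Map1b* window 2, both at 65.7%, and the median GC content of all windows is 52.7%. The letters AAGTT or AACTT, the core of the motif bound by the MYT1 family, were in 0 of the 6 member windows and in 39.3% of all windows. That says only that these letters are not in these 300 bases.

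In WT embryos *Map1b* was by far the most abundant member. Per kilobase of the longest transcript its level was 96.6 CPM, followed by *Mapt* at 34.7, *Ina* at 33.5, *Map2* at 25.1, *Map4* at 10.1, *Map6* at 3.62, *Nefm* at 1.38, *Nefl* at 1.11 and *Map1a* at 0.634 CPM per kilobase. *Mapt* exceeded *Ina* in 4 of 6 WT libraries, and their ranges overlapped, so these neighbours do not differ beyond their spread. *Nefm* exceeded *Nefl* in 6 of 6 libraries with overlapping ranges, and that order depends on the length used: with the union of all annotated exons *Nefm* had 0.878 and *Nefl* 1.11 CPM per kilobase. With union exons *Ina*, at 33.5, also stood above *Mapt*, at 24.2. For the remaining neighbours on the longest-transcript scale the WT ranges did not overlap.

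The embryonic neurofilament signal was almost wholly *Ina*. Summed per length over *Ina*, *Nefm* and *Nefl*, *Ina* held 93.1% ± 0.696 (SD, n = 6) in WT, *Nefm* 3.84% and *Nefl* 3.09%. In plain CPM, WT *Nefl* was at 3.75 ± 0.403 and WT *Nefm* at 5.08 ± 0.698, against 108.6 ± 9.68 for *Ina*.

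The order was different in the adult. Per kilobase, WT PFC had *Nefl* at 135 CPM, *Nefm* at 81.7, *Map1b* at 75.1, *Mapt* at 65.1, *Map4* at 54.7, *Map2* at 47.5, *Ina* at 45.4, *Map1a* at 12.7, *Map6* at 6.19 and *Nefh* at 5.74. The ranges of neighbours overlapped all the way from *Nefm* to *Ina*, and *Map6* exceeded *Nefh* in only 3 of 6 libraries. *Nefl* stood clear of *Nefm* in 6 of 6 libraries without overlap, and *Map1a* stood clear of *Ina* above it and *Map6* below it. With union exons *Nefl* was again first, at 135, and *Map1b* (56.0) came before *Nefm* (52.0). On that scale *Ina* and *Mapt* were level at 45.4, above *Map4* (22.0) and *Map2* (18.1). *Nefh*, at 4.86 to 7.05, then lay above *Map6*, at 2.76 to 3.71, so much of the adult order depends on the length used.

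Shares within a library show the contrast between the stages without setting levels across tables that were normalised separately. The share of *Ina* in the neurofilament sum was 17.0% ± 0.980 in WT PFC, where *Nefl* held 50.5%, *Nefm* 30.4% and *Nefh* 2.14%. The ratio of *Map1b* to *Map1a* per length was 153 ± 14.55 in WT embryos and 5.93 ± 0.494 in WT PFC. The ratio of *Ina* to *Nefl* per length was 30.3 ± 2.61 in WT embryos and 0.336 ± 0.0246 in WT PFC. No test was made between the stages.

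**Figure D1:**
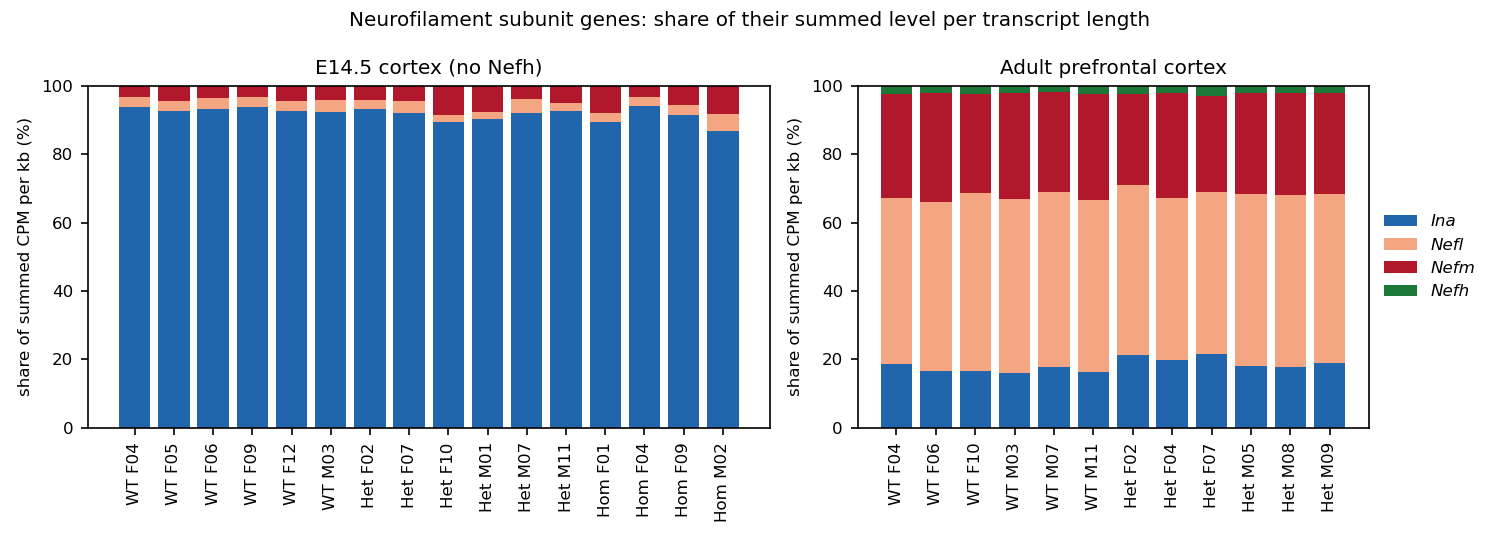
Share (%) of each neurofilament gene in their summed CPM per kilobase of the longest transcript, one bar per library, E14.5 cortex on the left and adult PFC on the right. *Ina* fills between 86.9% and 94.1% of each embryonic bar and between 16.1% and 21.6% of each adult bar.

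Hom embryos were compared with WT in E14.5 cortex. *Nefm*, the medium chain, rose in Hom embryos to 190% of the WT level, and it was the only one of the 9 members to pass the test. Of all genes tested, 7.6% were called in this comparison (944 genes), 3.23% as higher (401) and 4.37% as lower (543), so 1 call among 9 members is near what the whole table gives. The split of the calls depends on the scaling: with each library centred on its median it was 294 higher and 746 lower, and with a correction for GC content and length 231 and 555. *Ina* and *Nefl* were on average above WT and *Mapt* and *Map1a* below it, and none of these passed. The median difference of the 9 members was 0.08 on the log2 scale, against 0.02 over all genes tested.

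*Nefm* had 3.78 CPM in the lowest, 5.26 at the median of and 5.65 in the highest of the 6 WT libraries. The 4 Hom libraries had 11.6 CPM (F01), 5.59 CPM (F04), 7.50 CPM (F09) and 13.9 CPM (M02). Thus 3 of the 4 Hom libraries lay above every WT library, while Hom F04 lay inside the WT range. The means were 9.65 ± 3.79 CPM in Hom (SD, n = 4) and 5.08 ± 0.698 in WT (n = 6), a log2 difference of 0.78 (SE 0.21, 95% interval 0.34 to 1.22, limma adjusted p = 0.0255), with 4 of 4 Hom libraries above the WT mean.

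The spread of *Nefm* among Hom libraries was larger than in WT, and the call rests on single libraries. Without Hom M02 the difference was 0.60 (adjusted p = 0.119), without Hom F01 0.65 (adjusted p = 0.111) and without WT F04, the lowest WT library, 0.71 (adjusted p = 0.0622). Among the libraries labelled female it was 0.62 (adjusted p = 0.0918). Without Het F10 and Het M11, which share the fit, it was 0.77 (adjusted p = 0.0186). By identifier prefix, the part of the animal number before the dash, the Hom mean was 8.24 CPM (n = 3) against 5.43 CPM in WT (n = 4) for the prefix 14424, and 13.9 CPM (n = 1) against 4.37 CPM (n = 2) for 14526. With the prefix as a block the difference was 0.79 (adjusted p = 0.0280). What the prefix stands for is not given.

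The other neurofilament genes moved less. *Nefl* had 3.20 to 4.25 CPM with a median of 3.81 in WT, and 3.66 CPM (F01), 4.401 CPM (F04), 3.82 CPM (F09) and 7.54 CPM (M02) in Hom. Hom M02 alone stood far above, and the log2 difference of 0.27 (SE 0.22, adjusted p = 0.507) became 0.07 without it. *Ina* had 97.8 to 126 CPM with a median of 106 in WT, and 117 CPM (F01), 147 CPM (F04), 111 CPM (F09) and 129 CPM (M02) in Hom. All 4 Hom libraries lay above the WT mean and 2 above every WT library, at a difference of 0.21 (SE 0.09, unadjusted p = 0.0305, limma adjusted p = 0.162), which did not pass.

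*Nefm* and *Nefl*, which assemble into the same filaments, thus differed in their ratio from library to library. Per length, *Nefm* over *Nefl* was 1.25 ± 0.171 in WT (SD, n = 6), 2.24 ± 1.26 in Het (n = 6) and 1.90 ± 0.736 in Hom (n = 4). The highest ratios were in Het F10 at 3.87, Het M01 at 3.75 and Hom F01 at 2.92, against a WT maximum of 1.52. The share of *Ina* in the neurofilament sum was 91.7% ± 1.47 in Het and 90.5% ± 3.06 in Hom. These ratios are a description and were not tested. How reads in the exons shared by *Nefl* and *Nefm* were counted is not given, so their part in the ratios is unknown.

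Of the dendritic and axonal microtubule-associated genes none rose or fell in Hom embryos. *Map2* had 130 to 185 CPM with a median of 156 in WT and 164, 152, 196 and 196 CPM in Hom F01, F04, F09 and M02, a difference of 0.16 (SE 0.10, adjusted p = 0.352). *Mapt*, the tau gene, had 162 to 198 CPM with a median of 186 in WT, and 157, 168, 126 and 185 CPM in the same Hom libraries. In 2 of the 4 *Mapt* was below every WT library, at a difference of -0.21 (SE 0.10, 95% interval -0.42 to 0.01, adjusted p = 0.228). The ratio of *Map2* to *Mapt* per length was 0.727 ± 0.0980 in WT, 0.904 ± 0.221 in Het and 0.956 ± 0.237 in Hom, given as a description.

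*Map1a*, the adult form of the MAP1 pair, had 6.43 to 8.85 CPM with a median of 7.25 in WT and 6.70 CPM (F01), 7.61 CPM (F04), 5.81 CPM (F09) and 4.11 CPM (M02) in Hom. Hom M02 and F09 lay below every WT library, at a difference of -0.29 (SE 0.16, adjusted p = 0.282). *Map1b* had 980 to 1298 CPM in WT and 932 to 1319 CPM in Hom, a difference of -0.09 (adjusted p = 0.653). *Map4* differed by 0.08 (adjusted p = 0.566) and *Map6* by -0.004 (adjusted p = 0.991). A p above the threshold does not show equality: for the 9 members the 95% intervals reached from 0.15 (*Map4*) to 0.46 (*Nefl*) to either side of the estimate.

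Hom M02 was the highest of the 16 embryonic libraries for *Nefl*, *Nefm*, *Map4*, *Map1b* and *Map6* and the lowest for *Map1a*. It is the only Hom library labelled male and the only one with the prefix 14526, so sex, prefix and animal cannot be told apart there. Without it no member was called, and *Mapt* was at -0.30 (adjusted p = 0.0965).

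**Figure D2:**
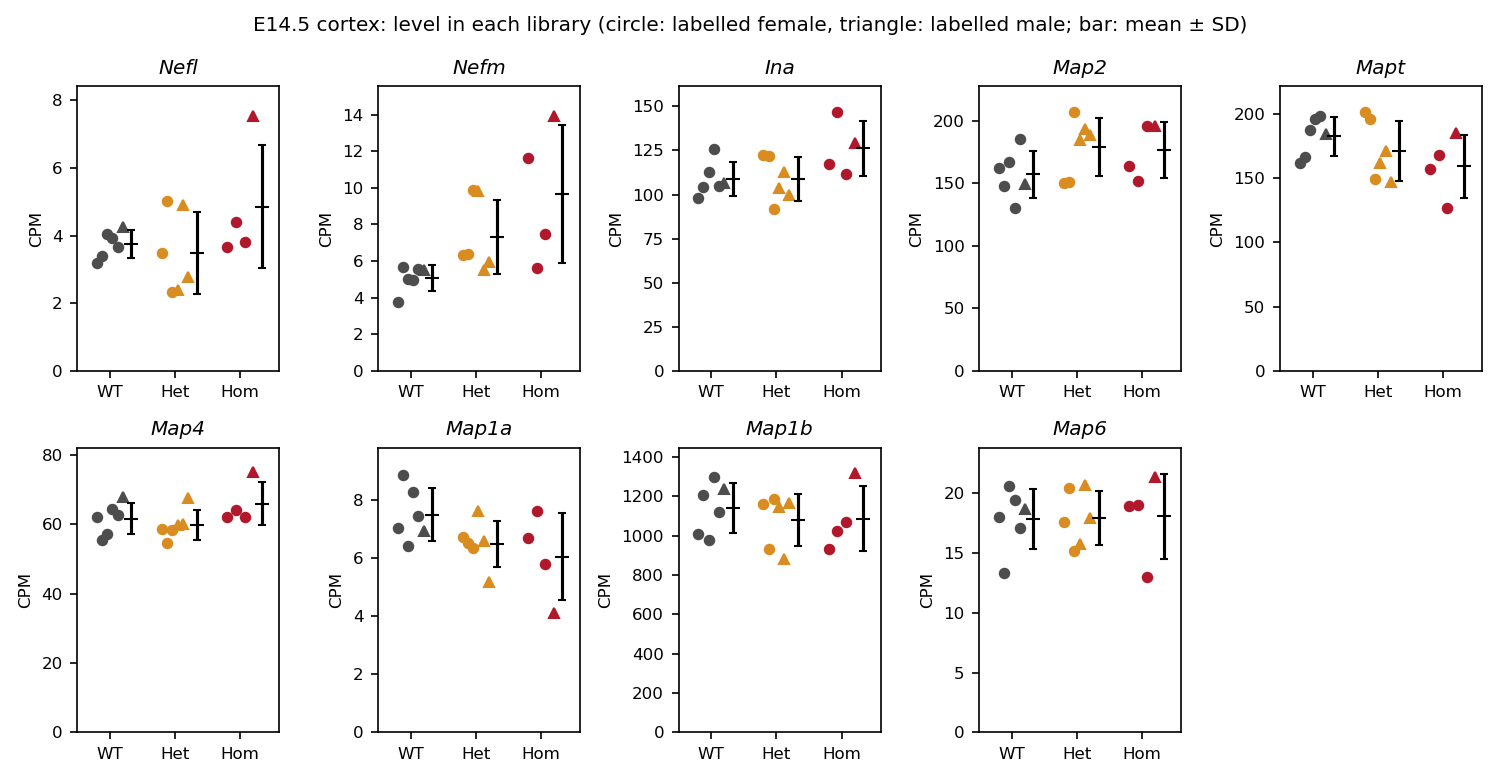
CPM of the 9 listed members in each E14.5 library (circles, labelled female; triangles, labelled male), with the mean ± SD of each group as bars, for 6 WT, 6 Het and 4 Hom libraries. For *Nefm* 3 of 4 Hom and 5 of 6 Het libraries lie above the highest WT library at 5.65 CPM, and for the other members the groups mix.

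Markers of other cell types were read beside *Nefm*, because its product is also abundant in peripheral sensory neurons. Of 10 sensory neuron markers, 6 were in the E14.5 table and the others were not analysed here. Their summed level was 5.61 to 14.1 CPM in WT, 6.34 to 23.0 in Het and 12.9 to 27.4 in Hom. It was 25.0 CPM in Hom F01, 12.9 in Hom F04, 23.1 in Hom F09 and 27.4 in Hom M02. The 4 Hom libraries thus stand in the order of *Nefm*, but that order rests on *Isl1*, 1 of the 6 markers. *Isl1* was 0.648 CPM in Hom F04 and 1.35 in Hom F09, against 16.4 in Hom F01 and 15.95 in Hom M02. Without *Isl1* the other markers do not sum in that order. Among the 5 of these markers tested, the neurotrophin receptor gene *Ngfr* (0.92, SE 0.23, adjusted p = 0.0147) rose in Hom. The transcription factor gene *Pou4f1* was at 0.204 to 0.850 CPM in WT, so it passed the filter of 1 CPM only through Het and Hom libraries. Its call is therefore not read as a result. In Hom it was 0.786 CPM (F01), 1.54 CPM (F04), 7.67 CPM (F09) and 2.52 CPM (M02).

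*Isl1*, a marker both of sensory and of striatal neurons, was 16.4 CPM in Hom F01 and 15.95 in Hom M02, the 2 Hom libraries with the most *Nefm*. It was also 12.7 CPM in Het M07, which had the least *Nefm* of the Het libraries at 5.49 CPM, and 0.543 and 1.46 CPM in Het F10 and Het M01, which had the most at 9.88 and 9.83 CPM. *Prph*, encoding peripherin, the intermediate filament of peripheral neurons, was at 0.236 to 0.648 CPM in Hom against 0.339 to 1.46 CPM in WT, and *Avil* was at most 0.341 CPM in Hom. The striatal and ventral list (7 of 8 in the table) summed to 108 to 141 CPM in WT, 127 to 162 in Het and 142 to 180 in Hom. The interneuron list (9 of 11) summed to 59.4 to 87.7, 75.5 to 111 and 56.4 to 138 CPM, and the Cajal-Retzius list (8 of 8) to 104 to 145, 107 to 128 and 113 to 137 CPM, in WT, Het and Hom. The 9 mitochondrially encoded genes summed to 5943 to 9034, 6568 to 10992 and 6772 to 10923 CPM. The part of these cell types and of RNA quality in the *Nefm* result was not tested. In tissue, fewer cells of a type and less RNA per cell cannot be told apart.

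**Figure D3:**
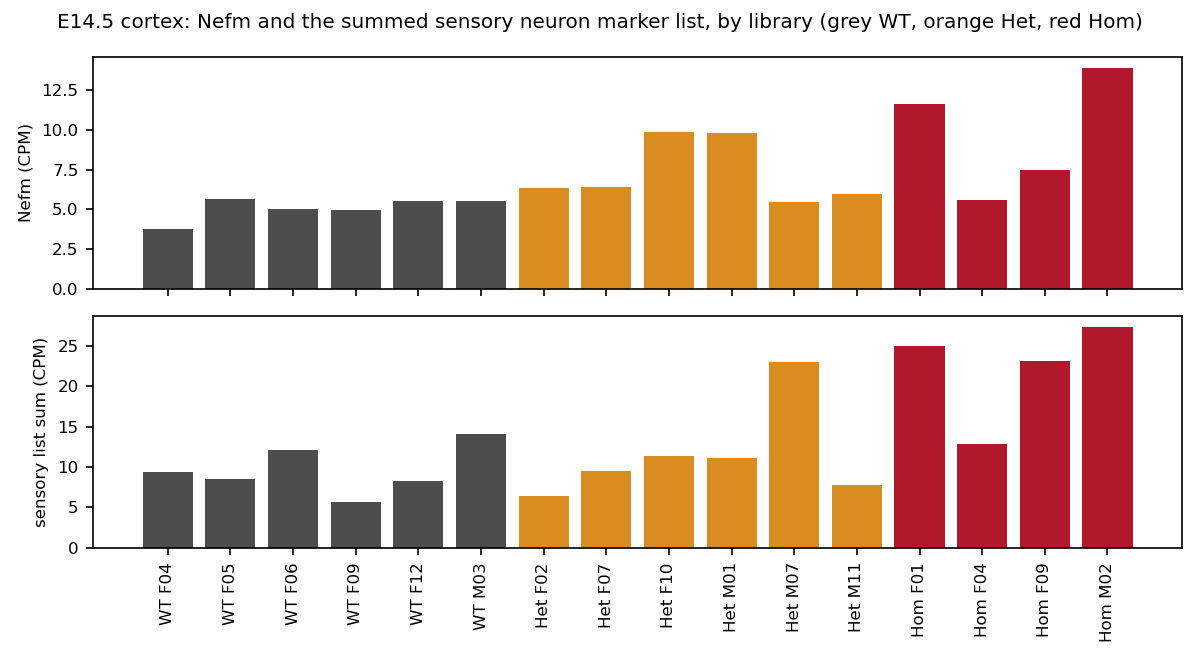
*Nefm* (top) and the summed level of the 6 sensory neuron markers in the table (bottom), in CPM, for each E14.5 library (grey WT, orange Het, red Hom). Hom M02 is highest in both, at 13.9 and 27.4 CPM, while Het M07 has 23.0 CPM of the markers and 5.49 CPM of *Nefm*.

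Het embryos were compared with WT in the same tissue. No member was called, 0 of 9, where 5.83% of all genes were (724 genes), 2.84% higher (353) and 2.98% lower (371). With each library centred on its median the split was 213 higher and 509 lower, and with the correction for GC content and length 112 and 381. Without Het F10 and Het M11, 1086 genes were called, 594 higher and 492 lower, and still no member. Counting genes with an unadjusted p under 0.05, there were 0 of 9 members and 22.3% of all genes. The median of the members was -0.10 against 0.03 over all genes. The Hom and Het comparisons share their WT libraries, so their values are set side by side and no agreement between them is read.

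*Nefm* was again the member farthest from WT. Its level in the 6 Het libraries ran from 5.49 CPM through a median of 6.37 to 9.88 CPM. All 6 lay above the WT mean and 5 above every WT library, at a mean of 7.31 ± 1.99 CPM, a difference of 0.40 (SE 0.20, 95% interval -0.01 to 0.81, adjusted p = 0.237), against 0.78 in Hom. Over all alternative settings this difference ran from 0.24 to 0.53 and its adjusted p from 0.140 to 0.503. Het F10, which with Het M01 had the most *Nefm* of the Het libraries, is also one of those whose Y-linked genes went against the label.

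*Nefl* had 2.34 to 5.02 CPM in Het with a median of 3.13, so 3 libraries lay below and 2 above the whole WT range (-0.21, SE 0.21, adjusted p = 0.597). *Ina* was level with WT, at 108.8 against 108.6 CPM (0.01, adjusted p = 0.967). *Map2* differed by 0.15, *Mapt* by -0.10, *Map1a* by -0.13, *Map1b* by -0.12, *Map4* by -0.10 and *Map6* by -0.03, with adjusted p between 0.364 and 0.917.

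Hom and Het embryos were compared directly. No member was called, in a comparison where 0.00805% of all genes were (1 gene, *Myt1l* itself). An unadjusted p under 0.05 was reached by 3 of 9 members and by 5.12% of all genes: *Nefl* differed by 0.48 (SE 0.23), *Ina* by 0.21 (SE 0.10) and *Map4* by 0.18 (SE 0.08), each with an adjusted p of 0.957. In each case all 4 Hom libraries lay above the Het mean. *Nefm* differed by 0.38 (SE 0.22, adjusted p = 0.957), so the larger *Nefm* level in Hom than in Het was within the spread of the libraries. Without Hom M02 these differences were 0.22 for *Nefl*, 0.17 for *Ina*, 0.14 for *Map4* and 0.13 for *Nefm*.

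No member separated any 2 groups of embryos completely. Groups did not overlap for 0 of 9 members in the Hom and WT comparison, against 9.9% of all genes, nor in the Het and WT comparison (2.57%) or the Hom and Het comparison (0.901%).

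**Figure D4:**
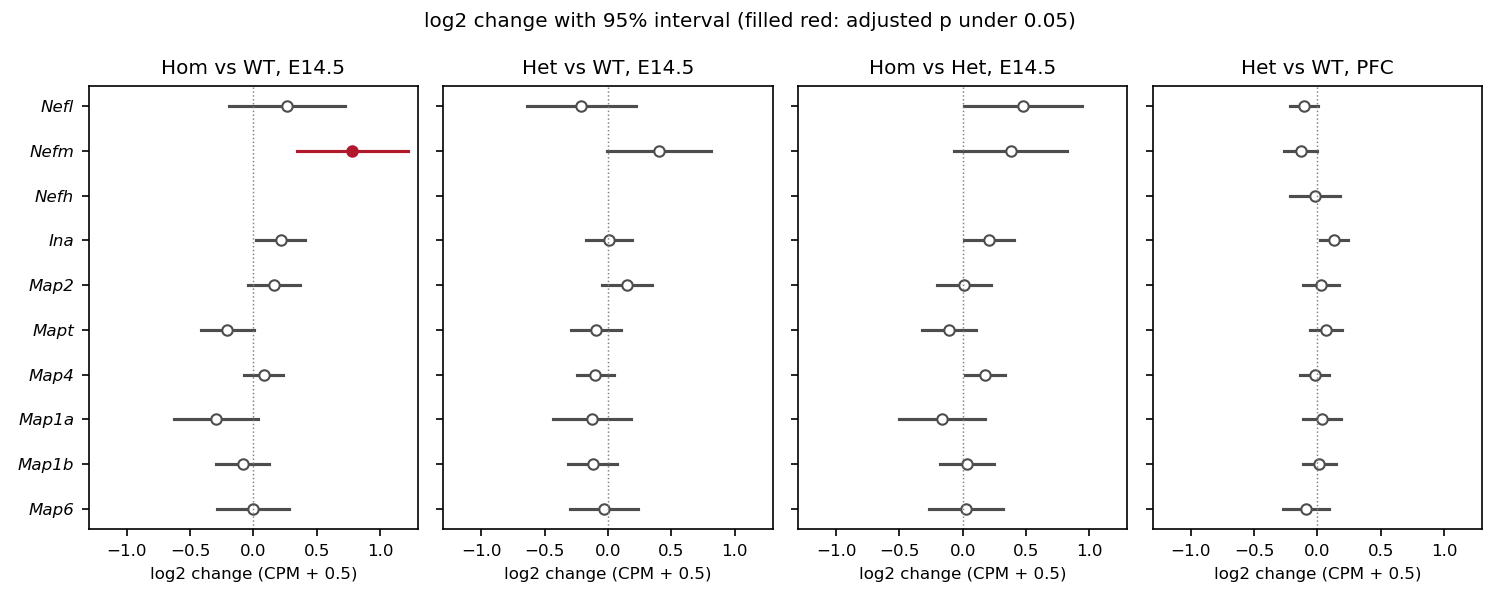
Log2 difference of each member, on the log2(CPM + 0.5) scale, with its 95% interval in the 4 group comparisons. The filled red point marks the one member with an adjusted p under 0.05, *Nefm* in Hom against WT at 0.78. In the PFC the interval of *Nefl* runs from -0.21 to 0.002.

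Genes that act on neurofilaments and microtubules were read from lists beside the members. Kinases and phosphatases that act on the tails of neurofilaments and on tau and MAP2 had 3 of 20 tested genes higher and 0 lower in Hom, with a median of 0.21 against 0.02 over all genes. Over all genes 3.23% were higher and 4.37% lower in Hom, and 2.84% and 2.98% in Het, and the counts of this and the following lists, a few genes each, are read against those shares. The genes were *Gsk3b*, a tau kinase (0.29, adjusted p = 0.0162), *Cdk5r1*, the activator of the neuronal kinase CDK5 (0.46, adjusted p = 0.0178), and *Dyrk1a*, a kinase that primes tau for further phosphorylation (0.36, adjusted p = 0.0386). The *Dyrk1a* call held in 17 of 31 alternatives and in 8 of 16 fits that left out a library, and it was lost with the identifier prefix as a block, with median centring and with the RUVr directions as covariates. *Cdk5r1* was 60.8 to 84.1 CPM in Hom and 44.6 to 56.5 CPM in WT, without overlap. In Het the list had 1 of 20 higher, *Cdk5r1* again at 0.43 (adjusted p = 0.0229), and 0 lower.

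Motors and tubulin-modifying enzymes included the clearest differences of these lists. *Dync1h1*, the heavy chain of cytoplasmic dynein, which carries cargo back to the cell body, was the 1 of 18 transport genes that fell, by 0.52 in Hom (adjusted p = 0.00563) and by 0.52 in Het (adjusted p = 0.00645). Its level was 106 to 122 CPM in WT and 62.7 to 114 CPM in Hom. *Hdac6*, a deacetylase of tubulin, fell by 0.62 in Hom (adjusted p = 8.1e-04) and by 0.54 in Het (adjusted p = 0.00226), from 58.7 to 76.8 CPM in WT to 40.3 to 51.9 CPM in Hom. Both genes were called in 31 of 31 alternatives in either comparison. *Spast*, encoding the severing enzyme spastin, rose by 0.37 in Hom (SE 0.10, adjusted p = 0.0296), a call that held in 22 of 31 alternatives.

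Among 20 other microtubule-associated genes tested, 1 was higher and 2 were lower in Hom, and 0 differed in Het. *Mapre1* and *Mapre2*, which encode plus-end binding proteins of the same family, differed in direction, at 0.20 and -0.26, calls that held in 19 and 21 of 31 alternatives. *Map1lc3b*, which encodes an autophagosome protein first found with MAP1, was at -0.25, called in 21 of 31. Of 9 other intermediate filament genes, 0 were called in either comparison. In the Hom and Het comparison 0 genes of these lists were called. Beside these counts, the sensory markers summed to 12.9 to 27.4 CPM in Hom against 5.61 to 14.1 in WT. The astrocyte list (6 of 7 in the table) summed to 877 to 895 CPM in Hom and 852 to 1090 in Het, against 1062 to 1158 in WT. Most of the astrocyte sum in each group was *Aldoc*, at 631 to 680 CPM in Hom, 618 to 739 in Het and 772 to 995 in WT. It was the 1 gene called of the 4 tested in that list. *Gja1*, the next in level, overlapped, at 185 to 255 CPM in Hom and 139 to 303 in WT. *Gfap* was at most 0.716 CPM in Hom and 0.476 in WT, and *Aqp4* at most 0.955 and 1.06 CPM. The sum is therefore not read as a level of astrocytes. The part of these markers was not tested.

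In the adult PFC, Het animals were compared with WT, and 0 of 10 members were called and 0.404% of all genes were (52 genes, 23 higher and 29 lower; 20 and 51 with median centring, and 25 and 19 with the correction for GC content and length). The differences were small: the median of the members was -0.002 against 0.01 over all genes, and every member lay between -0.13 and 0.13. Of the 10 members 2 had an unadjusted p under 0.05, *Ina* and *Nefm*, against 13.6% of all genes. Groups did not overlap for 0 of 10 members and for 0.668% of all genes.

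*Ina* was the member with the smallest relative spread in Het. It had 139 CPM in the lowest, 145 at the median of and 160.5 in the highest WT library, and 158, 160.3 and 167 CPM in the lowest, median and highest Het library. All 6 Het libraries lay above the WT mean and 3 above every WT library, at means of 161 ± 3.56 and 147 ± 8.80 CPM (SD, n = 6 each). The difference of 0.13 (SE 0.05, 95% interval 0.02 to 0.24, adjusted p = 0.265) did not pass the test, nor under any alternative, where its adjusted p ran from 0.114 to 0.476.

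The triplet genes lay on the other side. *Nefm* had 279 to 349 CPM with a median of 293 in WT and 227 to 305.5 CPM with a median of 290.0 in Het, and 5 of 6 Het libraries were below the WT mean (-0.13, SE 0.06, adjusted p = 0.348). *Nefl* had 417 to 519 CPM with a median of 456 in WT and 371 to 472 CPM with a median of 430 in Het (-0.11, SE 0.05, adjusted p = 0.379). For *Nefl* 3 Het libraries lay below every WT library, and they are the 3 Het females. All 3 carry the identifier prefix 14309, where the *Nefl* mean was 404 CPM in Het (n = 4) and 470 CPM in WT (n = 3). For the prefix 14308, all male, it was 471 CPM in Het and 460 CPM in WT (n = 2 each). *Nefh*, the heavy chain, had 22.9 ± 3.11 CPM in WT and 22.5 ± 2.09 in Het (-0.02, adjusted p = 0.954). As a share of the neurofilament sum per length, *Ina* held 19.5% ± 1.62 in Het against 17.0% ± 0.980 in WT, *Nefl* 49.1% against 50.5% and *Nefm* 29.1% against 30.4%, given as a description.

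The microtubule-associated genes were close to WT in Het PFC. *Mapt* had 342 ± 26.6 CPM in WT and 358 ± 27.6 in Het (0.07, adjusted p = 0.658), *Map2* 298 ± 18.2 and 305 ± 37.2 (0.03, adjusted p = 0.887), and *Map1b* 887 ± 90.9 and 895 ± 75.7 (0.01, adjusted p = 0.948). *Map1a* differed by 0.04, *Map4* by -0.02 and *Map6* by -0.09, and none passed. Of the kinase, motor, severing and filament lists and the other microtubule-associated genes, only *Map1s*, a further MAP1 family member, fell, as 1 of 23 other microtubule-associated genes, from 74.3 ± 6.08 to 58.7 ± 13.2 CPM (-0.37, SE 0.08, adjusted p = 0.0446). That call held in 8 of 24 alternatives.

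**Figure D5:**
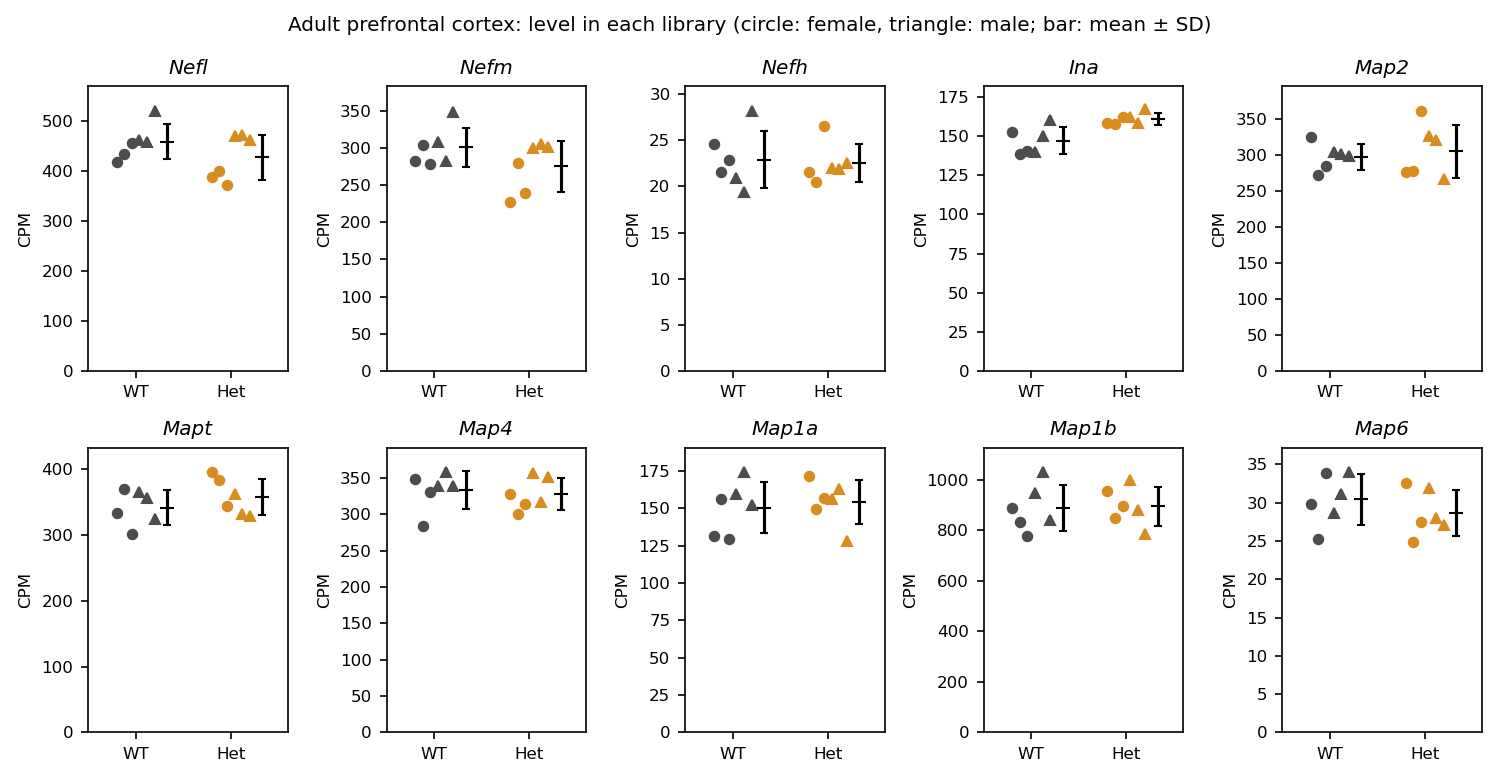
CPM of the 10 members in each adult PFC library (circles, female; triangles, male), with the mean ± SD of each group of 6 as bars. The 6 Het values of *Ina* lie between 158 and 167 CPM, all above the WT mean of 147 CPM, and for *Nefl* the 3 Het females, at 371 to 399 CPM, lie below every WT library.

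Sex was balanced in the PFC and allowed the genotype difference to be compared between females and males. No member was called for the interaction, 0 of 10, and neither was any gene (0%); an unadjusted p under 0.05 was reached by 1 member, *Map1a*, and by 8.48% of all genes. *Map1a* had means of 139 CPM in WT and 159 CPM in Het females and of 162 CPM in WT and 149 CPM in Het males (n = 3 each), an interaction of -0.32 (SE 0.13, adjusted p = 0.530). *Nefl* had means of 435 and 386 CPM in WT and Het females and of 480 and 467 CPM in WT and Het males (interaction 0.14, adjusted p = 0.727), and *Nefm* of 288 and 249 CPM in females and 313 and 302 CPM in males (interaction 0.17, adjusted p = 0.717). Male minus female, with genotype held constant, was 0.21 (SE 0.05) for *Nefl*, 0.20 (SE 0.06) for *Nefm* and between -0.04 and 0.11 for the other members, given as a description.

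The genes whose levels followed *Nefm* most closely over the 16 E14.5 libraries were *Ccdc107* (Pearson's r = 0.85), *Gtf2h1* (0.85) and *Pip4p2* (0.82), out of 12429 genes. These correlations of log2(CPM + 0.5) across libraries that share normalisation and genotype differences are a description only.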

How the data were processed

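Per the labels' protocols, a Zymo kit served for total RNA and a SMARTer Ultra Low RNA kit for the libraries. The submitters' processing notes name Trimmomatic, Bowtie2, STAR, HTSeq and the build mm10; versions, roles and the strand setting are not given in the sources. The authors deposited 1 table per tissue of log2 CPM after RUVr, a removal of unwanted variation. From the values, these were log2 CPM with a prior count of 2, scaled to a common upper quartile. CPM was recovered from the deposited log2 values, and 100% of the underlying numbers came out whole within 0.01. They are scaled and adjusted numbers, not read counts, so depth and its precision are unknown. The adjustment left 2 directions with almost no variance among the E14.5 libraries and 1 among the PFC libraries, which an alternative fit includes as covariates.

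Genes reaching 1 CPM in 4 or more E14.5 or 6 or more PFC libraries were tested on log2(CPM + 0.5) with limma 3.58.1 in R 4.3.3 (lmFit, eBayes with trend and robust), all libraries of a tissue in 1 fit, with genotype and labelled sex. The fit was tested on simulated data. Gene positions and lengths came from a GENCODE annotation of GRCm38, which 13840 of 13846 and 14098 of 14104 listed genes matched. All members, *Myt1l*, up to 3 called genes of each list with the lowest p and the 3 genes most like a called member are named by rule; marker genes and single libraries named beyond that were chosen after their values were seen. The members and lists were chosen with earlier results of these data known. Alternatives covered the pseudocount, filter, centring, GC content and length, RUVr directions, variance model, samples and covariates, and voom on the recovered numbers. Some genes that met the naming rule are not reported here, and protein sequences were not analysed here. Figures were drawn with matplotlib 3.10.9.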

Additional observations from a re-analysis of the deposited data

Results flagged for a closer look

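In 3 of 47 groups of 4 to 6 libraries, 1 member value stood apart from the rest of its group by Dixon's test at the 95% level, which chance alone gives in about 1 of 20 groups. *Map4* was 75.02 CPM in Hom M02 at E14.5, with the next Hom library at 64.2 CPM. *Nefh* was 26.5 CPM in Het F07 of the PFC, with the next Het library at 22.6 CPM. *Nefm* was 3.78 CPM in WT F04 at E14.5, with the next WT library at 4.96 CPM. The last of these is one of the libraries on which the *Nefm* call in Hom embryos depends.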

How the results depend on the processing

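*Nefm* in Hom embryos was above WT under all 31 alternatives, by 0.60 to 0.99 on the log2 scale, and it was called in 26 of them. The number of members called fell from 1 to 0 with the variance model without trend and robust (*Nefm* adjusted p = 0.0617) and, at 0, among libraries labelled female (0.0918); leaving out each library in turn gave 0 to 1, with 0 without Hom F01, Hom M02 or WT F04. In the other 4 comparisons 0 members were called under every alternative run. Of 1304 member values under alternatives, 1299 kept their side of the threshold without a called value changing direction, 5 lost the call (all *Nefm*) and 0 reversed; 88 changed sign while uncalled, at sizes up to 0.15. *Nefl* could not be tested with the filter of 5 CPM. The correction for GC content and length with the RUVr directions was chosen after seeing the data and left *Nefm* called (adjusted p = 0.0487). Counts over all genes ran from 437 to 1379 in Hom against WT, from 131 to 1177 in Het against WT, and from 0 to 127 in the PFC. Of the list genes, *Gsk3b* was called in 27 of 31 alternatives (not without Hom F09 or Hom M02), and *Cdk5r1* in 29 in Hom (not without Hom F04) and 24 in Het (not without Het F02, Het F07, WT F04 or WT M03) (the causes were not tested). No paired analysis was possible because the animal numbers name different animals and pair no libraries. Depth is unknown, and *Nefl*, *Nefm* and *Map1a* at E14.5, with under 14 CPM in every library, are the members most limited by it.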
